A study of Mus musculus with 2 samples.

Results

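The 7 genes described here encode ion channels, channel subunits and a calcium release channel of vascular mural cells, the pericytes (PCs) and smooth muscle cells that wrap blood vessels. They are Kcnj8, Abcc9, Kcnj2, Kcne4, Cacna1c, Ano1 and Itpr1, taken as a named list and matched by Ensembl identifier. All 7 were found among the 27040 identifiers that the 2 count matrices share. Their transcripts were compared between mural cells with more and with fewer contractile transcripts and endothelial cells (ECs) of the stria vascularis (SV), the vascularised epithelium of the cochlear lateral wall.

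The data are single-cell RNA counts of unique molecular identifiers (UMIs) from sorted SV cells of 2 reporter lines, both from mice of 1 to 3 months with no treatment named. Tie2-GFP mice mark ECs through the Tie2 promoter and NG2-DsRed mice mark PCs through the promoter of NG2, the product of Cspg4. Each line gave 1 library from the pooled SV of 10 mice (20 cochleae), sorted, per the labels, for its own fluorescent reporter. With 1 pooled library per line no difference below has a replicate check and no test was made. Every interval given is an exact 95% interval that covers counting error only. Intervals of shares of cells treat the cells of 1 library as independent draws.

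The Tie2-GFP matrix held 633 barcodes and the NG2-DsRed matrix 201, with 0 barcodes in common, and 399 and 165 of them passed the study's limits on genes, UMIs, mitochondrial and ribosomal reads. A barcode was called mural where at least 3 of Pdgfrb, Rgs5, Vtn and Notch3 and at most 1 of Pecam1, Cdh5, Cldn5, Flt1, Egfl7 and Ramp2 had a UMI, and endothelial where at least 4 of those 6 had one. NG2-DsRed gave 94 mural and 56 endothelial barcodes, and Tie2-GFP gave 2 and 368. The 94 mural barcodes were split into 40 contractile cells with 3 or more summed UMIs of Acta2, Tagln and Myh11 and 54 non-contractile cells with fewer. Contractile cells were the deeper class, with a median of 3749 UMIs against 2448.5, and the NG2-DsRed endothelial barcodes were deeper still at 9010. Levels are given as UMIs of a gene per 1000000 UMIs of its class (CPM), which allows for depth. Co-detection of members in the same cells is in part given also after each cell was thinned to 1567 UMIs. Shares of cells with a single member are given without thinning unless stated, and they depend on depth. None of the 7 genes took part in calling the classes.

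Mural cells set vessel calibre through their membrane potential. Potassium channels hyperpolarise the cell and close voltage-gated calcium channels, whereas calcium-activated chloride channels depolarise it and open them, so that calcium entry and calcium release from stores feed back on contraction. In capillary PCs of several tissues the ATP-sensitive potassium (KATP) channel, which opens when cellular ATP is low, is a known marker and regulator of blood flow. The SV depends on this circulation because its epithelium spends much energy on maintaining the endocochlear potential.

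Kcnj8 encodes the pore-forming subunit of the vascular KATP channel and Abcc9 its sulfonylurea receptor subunit, which senses nucleotides. In GRCm38 both genes lie on the minus strand of chromosome 6, Kcnj8 at chr6:142564837-142571614 and Abcc9 at chr6:142587862-142702315. They are separated by 16247 bases with 0 annotated genes between them. The gene 5330439B14Rik overlaps Abcc9 on the other strand, and Gm29536 overlaps Kcne4 and Gm44930 overlaps Ano1 in the same way. Cacna1c is overlapped by Gm18981 on the same strand and by Gm25905 and Dcp1b on the other. Itpr1 is overlapped by Gm27813 and Mir7661 on the same strand and by Gm44101 and Gm44040 on the other. How reads in the shared stretches were assigned was not given in the sources used here. The 250 bases before each start, from RefSeq (GRCm38.p6), are shown because these 2 genes had the most similar levels across cell classes. They are the minus strand of chr6:142571615-142571864 for Kcnj8 and of chr6:142702275-142702524 for Abcc9, written 5′ to 3′, with capitals marking an E-box.
Kcnj8: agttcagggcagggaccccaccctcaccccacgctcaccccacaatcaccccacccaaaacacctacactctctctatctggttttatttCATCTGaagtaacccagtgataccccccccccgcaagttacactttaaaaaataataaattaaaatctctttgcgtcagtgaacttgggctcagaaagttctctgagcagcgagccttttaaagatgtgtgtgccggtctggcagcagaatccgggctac
Abcc9: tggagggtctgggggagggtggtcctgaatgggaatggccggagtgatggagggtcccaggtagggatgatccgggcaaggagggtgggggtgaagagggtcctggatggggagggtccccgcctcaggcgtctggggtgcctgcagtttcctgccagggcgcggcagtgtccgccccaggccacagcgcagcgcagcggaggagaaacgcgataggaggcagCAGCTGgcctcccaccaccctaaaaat
Each stretch held 1 match to the E-box CANNTG on either strand, a motif present in 66.2% of the 32841 mouse promoter stretches of that length. Neither held a CArG box or a MEF2 site, which were present in 1.47% and 2.92% of those stretches, and the same was true of the other 6 stretches available for Kcnj2, Kcne4, Cacna1c and Ano1. The upstream stretches differed in base composition, with 49.2% G and C for Kcnj8 and 66.8% for Abcc9.

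Kcnj8 and Abcc9 were the members with the largest difference between the mural classes, and both were higher in the non-contractile cells. In the 54 non-contractile cells Kcnj8 had 140 UMIs, or 987 CPM (830 to 1165), with 0 to 10 UMIs per cell and a median of 2. In the 40 contractile cells it had 54 UMIs, or 303 CPM (228 to 396), with 0 to 11 per cell and a median of 0. The contractile level was therefore 3.25-fold lower, a log2 ratio of -1.70 (-2.18 to -1.24). Abcc9 followed the same order, with 184 UMIs and 1297 CPM (1117 to 1499) in non-contractile cells. It had 58 UMIs and 326 CPM (247 to 421) in contractile cells, a log2 ratio of -1.99 (-2.45 to -1.56). Single cells of both classes overlapped for both genes, since each class held cells at 0 and cells above 10 UMIs of Abcc9. The study describes one of its PC subclasses by these 2 genes in the same NG2-DsRed library, so their direction is not independent evidence. It also reports KCNJ8 protein staining of that subclass in the SV.

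Of the 6 members with at least 20 UMIs over both mural classes, 0 were past 4-fold in either direction. Among all 3107 genes with that many UMIs, 2.03% were past 4-fold higher and 1.35% past 4-fold lower in contractile cells. The 0 among the members turned on Abcc9, which was 3.98-fold lower in contractile cells, just short of the limit. It was past 4-fold under some other settings, such as a contractile limit of 1000 CPM (log2 ratio -2.15). Under others it was not, such as a limit of 1 UMI (-1.71). Past 2-fold, 2 of the 6 members were lower (Kcnj8 and Abcc9), beside 10.9% of all genes, and 0 were higher, beside 9.27%. The median log2 ratio of all counted genes was -0.01, so the 2 classes were centred on each other.

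**Figure D1:**
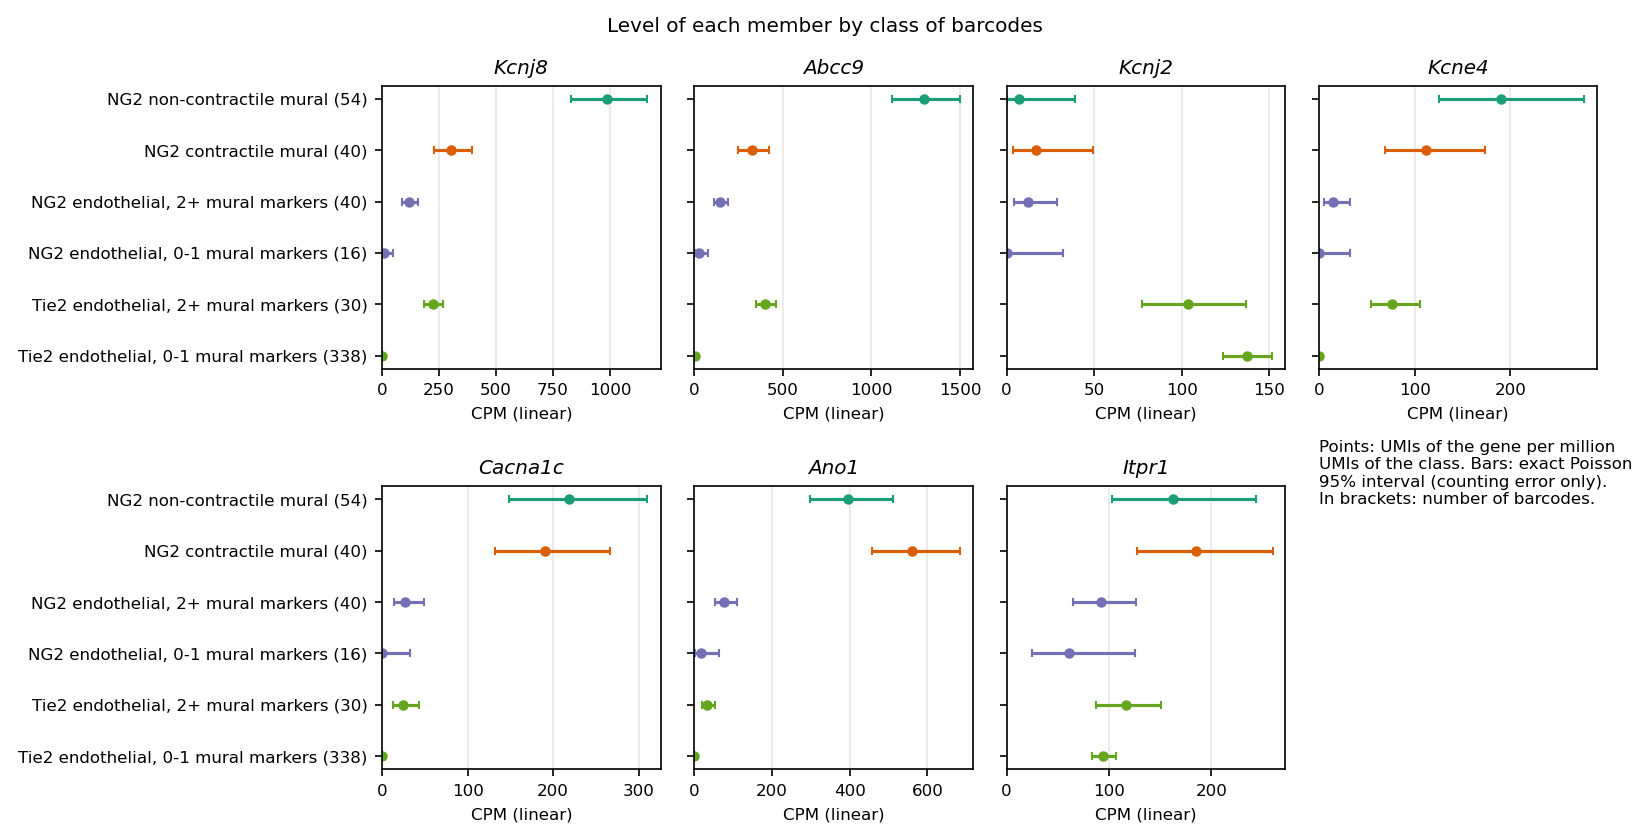
Level of each member in CPM (linear horizontal axes, scaled per gene) in mural and endothelial classes of each library; points are class totals and bars exact Poisson 95% intervals. Kcnj8 and Abcc9 were highest in non-contractile mural cells (987 and 1297 CPM), Ano1 in contractile mural cells (562 CPM), and Kcnj2 in Tie2-GFP endothelial barcodes with at most 1 mural marker (137 CPM).

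The KATP transcripts were lowest in the mural cells with the most contractile UMIs. Kcnj8 stood at 1059 CPM (860 to 1291) in the 40 cells with 0 contractile UMIs, 851 (614 to 1151) in the 14 cells with 1 to 2, 694 (472 to 985) in the 14 with 3 to 9, and 172 (109 to 259) in the 26 with 10 or more. Abcc9 stood at 1492 (1253 to 1762), 933 (683 to 1244), 784 (546 to 1090) and 172 CPM (109 to 259) in the same order. The intervals of the 3 lower classes overlapped for Kcnj8, and those of the 2 middle classes for Abcc9, while the class with 10 or more lay below all others for both genes. The level of the 2 transcripts in that class rested largely on 1 cell, with 15 contractile UMIs and 5083 UMIs in all, which held 11 of the 23 Kcnj8 UMIs and 12 of the 23 Abcc9 UMIs. Without that cell the log2 ratio of contractile to non-contractile cells was -1.99 for Kcnj8 and -2.29 for Abcc9. With the contractile limit set at 10 UMIs it was -2.41 (-3.11 to -1.78) and -2.77 (-3.46 to -2.14), and Kcnj8 was found in 6 of 26 cells and Abcc9 in 7. With a limit of 1000 CPM, which allows for depth, it was -1.79 (-2.30 to -1.30) and -2.15 (-2.65 to -1.68).

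**Figure D2:**
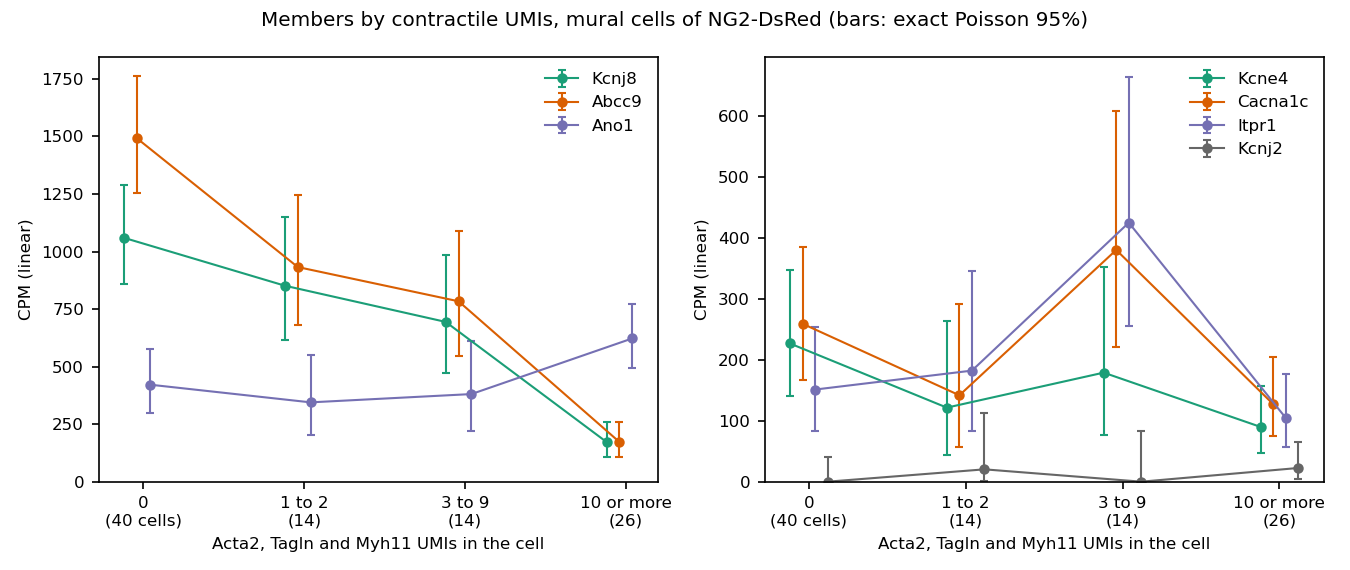
CPM of the members (linear vertical axes) in NG2-DsRed mural cells grouped by their summed UMIs of Acta2, Tagln and Myh11 (horizontal axis, number of cells in brackets); points are class totals and bars exact Poisson 95% intervals. Kcnj8 and Abcc9 stand at 1059 and 1492 CPM at 0 contractile UMIs and at 172 CPM each at 10 or more, Ano1 stands highest in that last class (622 CPM), and Itpr1 and Cacna1c peak in the class with 3 to 9.

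Transcripts of both KATP subunits were found in the same cells at shares above the product of their separate shares. That product is the share that unlinked detection would give in cells alike in both genes. In non-contractile cells Kcnj8 was detected in 40 of 54, Abcc9 in 42 and both in 34, which is 63.0% (48.7 to 75.7) beside a product of the 2 shares of 57.6%. In contractile cells the counts were 15, 19 and 13 of 40, and both were found in 32.5% (18.6 to 49.1) beside a product of 17.8%. Over all 94 mural cells both were found in 47, Kcnj8 alone in 8, Abcc9 alone in 14 and neither in 25. Abcc9 was thus present in 85.5% (73.3 to 93.5) of the mural cells with Kcnj8 and in 35.9% (21.2 to 52.8) of those without. A cell with neither transcript was common in the contractile class, at 19 of 40, and rare in the non-contractile class, at 6 of 54.

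Co-detection remained above the product at equal depth. After thinning, which left out 10 non-contractile cells and 0 contractile cells, both transcripts were expected in 54.9% of non-contractile cells against a product of 50.9%, and in 17.5% of contractile cells against 8.62%. With the mural cells cut into 3 groups by depth, both were found in 13 of 32, 19 of 31 and 15 of 31 cells from the shallowest to the deepest group, against products of 36.9%, 50.3% and 28.3%. Within the non-contractile class the product lay inside the interval of the observed share, and in the contractile class it lay just below it. As the product was computed from the same cells, this does not measure how far the 2 transcripts are linked. In contractile cells Abcc9 was present in 86.7% (59.5 to 98.3) of those with Kcnj8 and 24.0% (9.36 to 45.1) of those without. In non-contractile cells these shares were 85.0% (70.2 to 94.3) and 57.1% (28.9 to 82.3). The co-detection share over all mural cells also pools 2 classes that differ in both genes. The contractile class in turn pools cells with 3 to 9 contractile UMIs and cells with 10 or more. Kcnj8 and Abcc9 were found in 9 and 12 of the 14 former, and in 6 and 7 of the 26 latter. Pooling such cells can by itself put the share above the product. Whether detection is linked within the contractile class was therefore not tested. With at least 2 UMIs of each gene required, 38.9% of non-contractile and 15.0% of contractile cells had both. Without the 14 cells with 3 to 9 contractile UMIs the contractile share was 19.2%, and its product was not computed. Among the 21 pairs of members in all mural cells, Kcnj8 with Abcc9 had the highest ratio of observed share to product, 1.32 before thinning. After thinning it was 1.41, below only Kcnj2 with Ano1 at 1.72, a pair that rests on 4 cells with Kcnj2. Within the classes the ratio for Kcnj8 with Abcc9 was 1.82 in contractile cells and 1.09 in non-contractile cells. In the latter Kcne4 with Cacna1c (1.28), Abcc9 with Kcne4 (1.22), Cacna1c with Ano1 (1.17), Abcc9 with Cacna1c (1.16) and Abcc9 with Ano1 (1.11) stood above it, so its place among the pairs did not hold there.

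**Figure D3:**
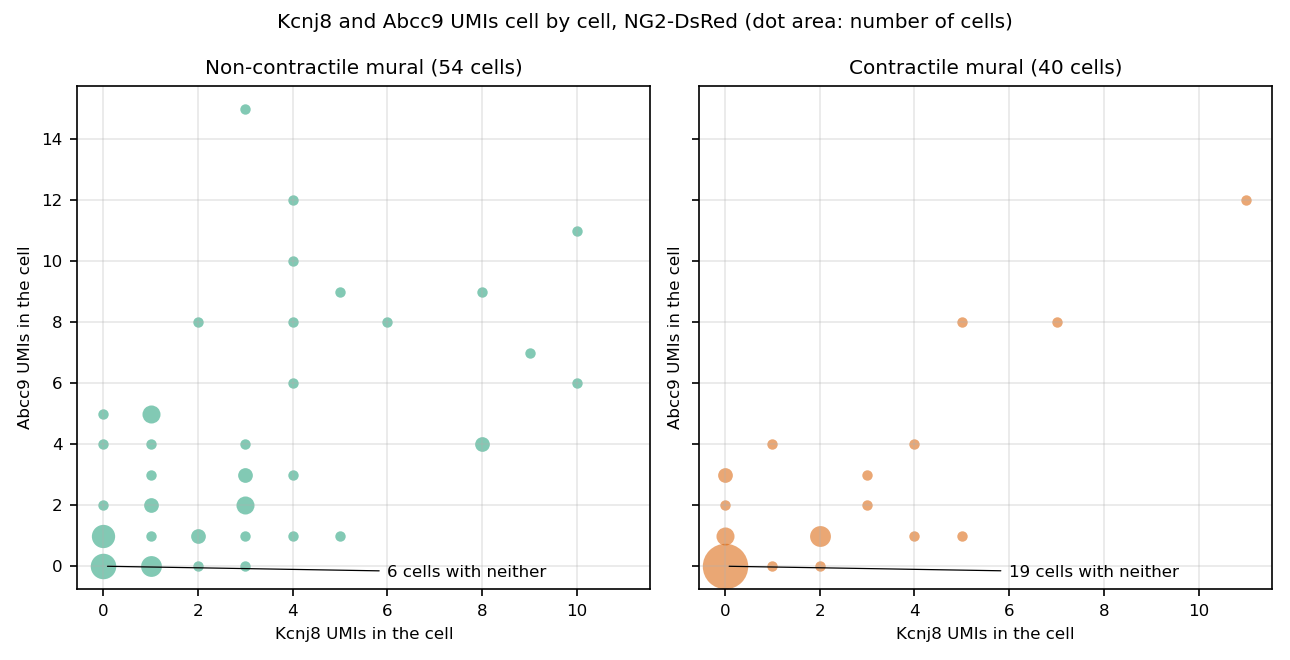
Kcnj8 UMIs (horizontal axis) and Abcc9 UMIs (vertical axis) in each NG2-DsRed mural cell, non-contractile left and contractile right; dot area is proportional to the number of cells at that point. Non-contractile cells reach 10 Kcnj8 and 15 Abcc9 UMIs with 6 of 54 cells at the origin, and 19 of 40 contractile cells sit at the origin.

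The balance between the 2 subunit transcripts had overlapping intervals in the NG2-DsRed classes. Kcnj8 made up 43.2% (37.7 to 48.8) of the Kcnj8 and Abcc9 UMIs in non-contractile cells, 48.2% (38.7 to 57.9) in contractile cells and 44.1% (34.7 to 53.9) in NG2-DsRed endothelial barcodes. In Tie2-GFP endothelial barcodes the share was the lowest of these, at 35.2% (29.8 to 40.8), from 109 and 201 UMIs. As neither count was corrected for how well each transcript is captured, the share is not a subunit ratio of the channel.

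Of the other 2 potassium channel members, Kcne4 was present in both mural classes and Kcnj2 was nearly undetected. Kcnj2 encodes a strong inward rectifier that senses external potassium in endothelial and smooth muscle cells, and lies at chr11:111066164-111076821. It had 1 UMI in the non-contractile class and 3 in the contractile class, in 4 of 94 mural cells (4.26%), at 12.5 CPM (3.41 to 32.0). Intermediate-like barcodes are pigment cells called by at least 3 of Dct, Tyr, Tyrp1, Pmel, Mlana and Kcnj10, with at most 1 mural and at most 1 endothelial marker. In those of the same library Kcnj2 was found in 3 of 25 (12.0%) at 12.8 CPM. The mural level of Kcnj2 was thus no higher than that in barcodes of another cell type, and the source of these UMIs was not tested. Kcne4, at chr1:78816758-78820028, encodes an auxiliary subunit that inhibits several voltage-gated potassium channels. It had 27 UMIs and 190 CPM (125 to 277) in non-contractile cells, with 0 to 3 UMIs per cell. In contractile cells it had 20 UMIs and 112 CPM (68.6 to 174), a log2 ratio of -0.76 (-1.67 to 0.13). Its interval reached 0 at the limit of 3 UMIs but lay below 0 with the limit at 1 UMI (-1.88 to -0.09), at 10 UMIs (-2.14 to -0.08) and at 1000 CPM (-1.98 to -0.10), and without the cells with 3 to 9 contractile UMIs (-2.20 to -0.05). The interval held 0 under every other setting that had one. Among them were all deposited barcodes (-1.38 to 0.35) and mural cells with 0 endothelial markers (-1.73 to 0.08).

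The 2 calcium members did not differ between the mural classes beyond counting error. Cacna1c, at chr6:118587240-119196418, encodes the pore of the L-type calcium channel, the main route of voltage-gated calcium entry in vascular muscle. It had 31 UMIs and 219 CPM (149 to 310) in non-contractile cells and 34 UMIs and 191 CPM (132 to 267) in contractile cells, a log2 ratio of -0.19 (-0.94 to 0.56). Itpr1, at chr6:108213096-108551109, encodes an inositol trisphosphate receptor that releases calcium from the endoplasmic reticulum. It had 23 UMIs and 162 CPM (103 to 243) against 33 UMIs and 185 CPM (128 to 260), a log2 ratio of 0.19 (-0.62 to 1.03). Both genes were highest in the 14 cells with 3 to 9 contractile UMIs, at 381 CPM (222 to 609) for Cacna1c and 425 CPM (256 to 664) for Itpr1. In the 26 cells with 10 or more they were at 127 CPM (74.3 to 204) and 105 CPM (57.4 to 176), below the former class for both. The contractile class therefore joins cells at different levels of these genes. With the limit at 10 UMIs the log2 ratio was -1.01 (-1.90 to -0.19) for Cacna1c and -1.10 (-2.09 to -0.20) for Itpr1, and without the cells of the 3 to 9 class it was -0.78 (-1.72 to 0.12) and -0.63 (-1.70 to 0.39).

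Ano1 was the only member that was higher in contractile cells with an interval above 0. It lies at chr7:144588549-144751974 and encodes the calcium-activated chloride channel that depolarises smooth muscle and PCs. It had 56 UMIs and 395 CPM (298 to 513) in non-contractile cells, with 0 to 4 UMIs per cell and a median of 1. In contractile cells it had 100 UMIs and 562 CPM (457 to 683), with 0 to 9 per cell and a median of 2, a log2 ratio of 0.51 (0.02 to 1.01). The difference did not hold under every setting. The lower bound was -0.25 with the contractile limit at 1 UMI, -0.12 with a limit of 1000 CPM, -0.04 in mural cells with 0 endothelial markers, -0.08 without the barcodes that Scrublet, a doublet caller, marked at its own threshold, and -0.10 without 2 non-contractile cells that held 10 or more UMIs of basal or intermediate cell markers. In the 26 cells with 10 or more contractile UMIs Ano1 was detected in 22, and Kcnj8 in 6. Both transcripts were found in 31 of 94 mural cells (33.0%) beside a product of 36.7%.

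**Figure D4:**
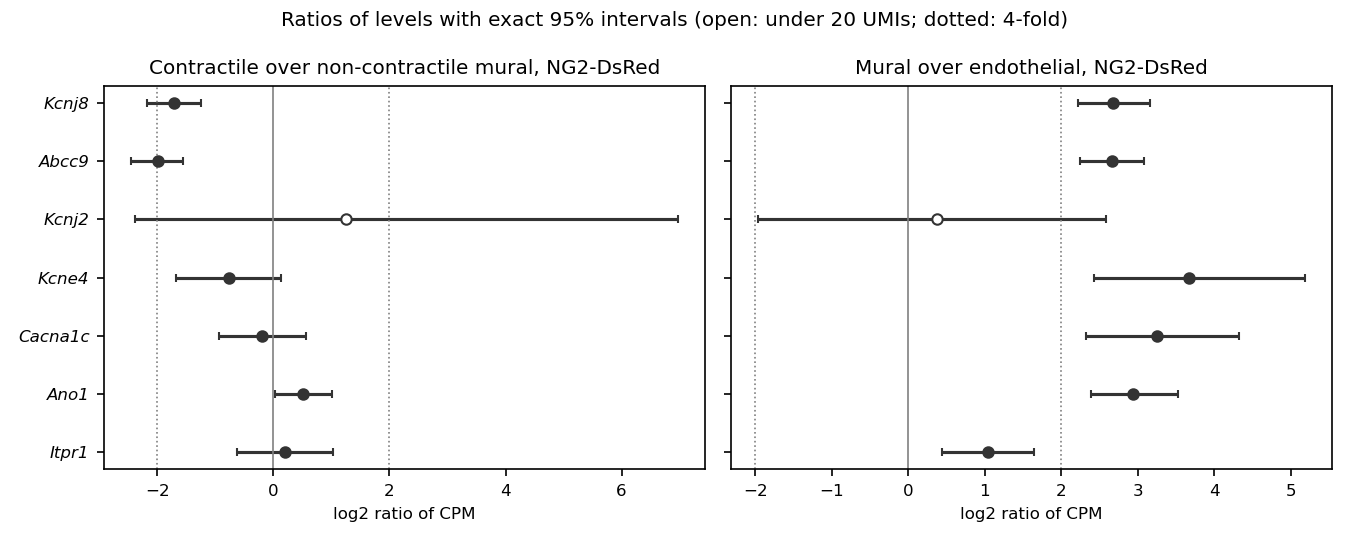
Log2 ratios of CPM of the 7 members in NG2-DsRed for contractile over non-contractile mural cells (left) and mural over endothelial barcodes (right), with exact 95% intervals; open points have fewer than 20 UMIs over both classes and dotted lines mark 4-fold. On the left Kcnj8 and Abcc9 lie at -1.70 and -1.99 and Ano1 at 0.51; on the right 5 members lie past 4-fold.

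Within NG2-DsRed, 5 of the 6 members with at least 20 UMIs over both classes were past 4-fold higher in mural than in endothelial barcodes, beside 5.3% of all 6336 genes counted, and 0 were past 4-fold lower, beside 6.44%. The members were listed as mural channel genes with earlier results of these data known, so this count is not independent evidence. The log2 ratio was 2.68 (2.22 to 3.16) for Kcnj8, from 607 and 94.8 CPM. It was 2.66 (2.25 to 3.08) for Abcc9, from 757 and 120 CPM, and 2.93 (2.38 to 3.52) for Ano1, from 488 and 63.8 CPM. For the members with fewer UMIs it was 3.66 (2.43 to 5.18) for Kcne4 and 3.26 (2.32 to 4.33) for Cacna1c. Itpr1 was the counted member with the smallest ratio, at 175 CPM against 85.1 CPM, with a log2 ratio of 1.04 (0.45 to 1.64). Kcnj2 had 4 UMIs against 5 and was not counted. The contractile cells alone stood closer to the endothelial barcodes in KATP transcripts, with log2 ratios of 1.68 (1.09 to 2.27) for Kcnj8 and 1.44 (0.90 to 1.98) for Abcc9. In that comparison 3 of 6 members (Kcne4, Cacna1c and Ano1) were past 4-fold higher, beside 3.58% of 5502 genes, and 0 lower, beside 8.42%.

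The UMIs of these mural members in endothelial barcodes sat almost wholly in barcodes that also carried mural markers. Of the 56 NG2-DsRed endothelial barcodes, 40 had a UMI of 2 or more mural markers, and they held 48 of 49 Kcnj8 UMIs, 59 of 62 Abcc9 UMIs, 31 of 33 Ano1 UMIs and all 6 Kcne4 and 11 Cacna1c UMIs. These barcodes held 77.8% of the UMIs of the class. The intervals of the Kcne4 share (54.1% to 100%) and the Cacna1c share (71.5% to 100%) held that value. Those of Kcnj8 (89.1% to 99.9%), Abcc9 (86.5% to 99.0%) and Ano1 (79.8% to 99.3%) lay above it. In Tie2-GFP the contrast was larger, since the 30 endothelial barcodes with 2 or more mural markers held 14.7% of UMIs but 107 of 109 Kcnj8 UMIs, 193 of 201 Abcc9 UMIs and 37 of 38 Kcne4 UMIs. They also held 12 of 13 Cacna1c UMIs and 16 of 16 Ano1 UMIs. All 19 Tie2-GFP endothelial barcodes with Kcnj8 also had Abcc9. Itpr1 and Kcnj2 behaved otherwise, with 17.4% and 11.5% of their Tie2-GFP endothelial UMIs in these barcodes. Barcodes with 2 or more mural markers were deeper than those with at most 1, at medians of 9872 against 6202.5 UMIs in NG2-DsRed. In Tie2-GFP the medians were 17225.5 against 7246. Whether such barcodes hold 1 cell or an EC together with a mural cell was not tested.

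In the endothelial barcodes with at most 1 mural marker the KATP, Kcne4, Cacna1c and Ano1 transcripts were few, and near 0 in Tie2-GFP. The rule counts markers and not their UMIs, so these barcodes were not free of mural marker UMIs. In NG2-DsRed the 4 mural markers summed to 150 UMIs, all of Rgs5, with up to 55 in a barcode. That was 1309 CPM, beside 57.4 CPM in the same class of Tie2-GFP. In NG2-DsRed the 16 such barcodes held 1 Kcnj8 UMI (8.73 CPM) and 3 Abcc9 UMIs (26.2 CPM, 5.40 to 76.5). They also held 2 Ano1 UMIs (17.5 CPM, 2.11 to 63.0), and 0 of Kcne4 and Cacna1c, which allows up to 26.2 CPM. The 338 such barcodes of Tie2-GFP held 2 Kcnj8 UMIs (0.714 CPM), 8 Abcc9 UMIs (2.85 CPM), 1 Kcne4 UMI, 1 Cacna1c UMI and 0 Ano1 UMIs, which allows up to 1.07 CPM. Against these barcodes the mural level of Abcc9 in NG2-DsRed was higher by a log2 ratio of 8.05 (7.05 to 9.28) and that of Kcnj8 by 9.73 (7.86 to 12.8), a ratio that rests on 2 UMIs. Ano1 was 456-fold higher in mural cells against a floor of 3 UMIs over the class, and the lower bound of its log2 ratio was 8.52. In this comparison across libraries 5 of the 7 members were past 4-fold higher in mural cells, beside 8.59% of 9414 genes, and 1 (Kcnj2) was past 4-fold lower, beside 12% of genes. The rules for these 2 classes, at most 1 and at least 3 mural markers, in part fix mural transcripts to differ. The libraries differ in mouse line, sort, counting software version and the list of genes counted, and these cannot be told apart from cell type here. In intermediate-like barcodes, deeper than mural cells at medians of 9727 and 15339.5 UMIs, Kcnj8 and Abcc9 were found in 0 of 25 and 0 of 90, which by the limit of 3 counts allows up to 12.0% and 3.33% of such barcodes to have a UMI. The rule for these barcodes left out those with more than 1 mural marker, which in part fixes mural transcripts to be low. Itpr1 was found in these barcodes, in 5 of 25 at 25.6 CPM in NG2-DsRed and in 39 of 90 at 55.8 CPM in Tie2-GFP. Ano1 was found in 0 of 25 and in 16 of 90, the latter at 15.8 CPM (9.80 to 24.2), and Kcne4 in neither library.

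Kcnj2 was found in many endothelial barcodes of Tie2-GFP and in few of NG2-DsRed. In Tie2-GFP endothelial barcodes it had 434 UMIs and 132 CPM (120 to 145) and was found in 147 of 368 (39.9%), with up to 20 UMIs in a barcode. In NG2-DsRed endothelial barcodes it had 5 UMIs and 9.67 CPM (3.14 to 22.6), all in barcodes with 2 or more mural markers. The Tie2-GFP level was higher by a log2 ratio of 3.77 (2.54 to 5.40). Among endothelial barcodes with at most 1 mural marker it was 384 UMIs and 137 CPM in Tie2-GFP against 0 UMIs in 16 barcodes of NG2-DsRed. That is 5.23-fold higher against a floor of 3 UMIs, with a lower bound of the log2 ratio of 2.08. In intermediate-like barcodes the 2 libraries did not differ beyond counting error, at 18.8 CPM (12.2 to 27.8) and 12.8 CPM (2.64 to 37.3). That comparison rests on 25 and 3 UMIs, with a wide log2 ratio of 0.56 (-1.15 to 2.93). Itpr1 was also close in the endothelial barcodes of both libraries, at 97.7 CPM (87.3 to 109) in Tie2-GFP and 85.1 CPM (61.8 to 114) in NG2-DsRed. Between endothelial barcodes of the 2 libraries, 1 of 7 members (Kcnj2) was past 4-fold higher in Tie2-GFP, beside 3.96% of 9621 genes, and 2 (Cacna1c and Ano1) were past 4-fold lower, beside 2.9%. The classes also differ in mural marker content, as barcodes with 2 or more mural markers held 77.8% of UMIs in NG2-DsRed and 14.7% in Tie2-GFP. Barcodes with at most 1 differed too, with mural markers at 1309 CPM in NG2-DsRed and 57.4 CPM in Tie2-GFP. Within the barcodes with 2 or more, Cacna1c was at 27.3 CPM (13.6 to 48.9) in NG2-DsRed and 24.9 CPM (12.9 to 43.5) in Tie2-GFP. Ano1 was at 77.0 CPM (52.3 to 109) and 33.2 CPM (19.0 to 53.9), and Kcnj2 at 12.4 and 104 CPM. Reporter line, sort, library, counting software version and the list of genes counted cannot be told apart in these differences.

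Over all members, a mural cell carried a median of 3 of the 7 transcripts and at most 6. Of the 94 cells, 3 had none, 2 had 6, and the largest number, 30, had 3. The median was 3 in both mural classes, without thinning, although contractile cells were deeper. The classes differed in the KATP members also after thinning. Kcnj8 was then expected in 69.9% of non-contractile and 27.4% of contractile cells, and Abcc9 in 72.8% and 31.5%. Cacna1c was expected in 27.3% and 27.5%, and Ano1 in 43.7% and 47.5%. Markers of other cell types were summed in the mural cells. The 6 endothelial markers summed to 11 UMIs with Flt1 and Ramp2 at 0, which the rule for mural barcodes fixes to be low. The 4 marginal cell markers (Kcnq1, Kcne1, Esrrb and Hmx2) were at 0, and the 6 macrophage markers summed to 1 UMI. The 4 basal cell markers summed to 613 CPM in non-contractile and 50.6 CPM in contractile cells, with 70 of 87 UMIs of the former in 1 cell. The 6 intermediate cell markers summed to 219 and 5.62 CPM, with 0 to 18 UMIs per cell and Tyr, Tyrp1 and Pmel at 0. The 5 fibrocyte markers were at 324 and 169 CPM with Col1a1, Dcn and Lum at 0, and the Schwann cell and erythroid lists held 5 UMIs each over the 94 cells. Without the 2 cells rich in basal or intermediate markers the log2 ratio of contractile to non-contractile cells was -1.79 for Kcnj8 and -2.06 for Abcc9.

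The wider channel families give the setting of the members. Of 111 genes in 8 lists (KATP subunits, other inward rectifiers, voltage-gated and calcium-activated potassium channels, calcium channels, calcium stores, TRP and mechanosensitive channels, and chloride channels), 18 that are not members had at least 20 UMIs over both mural classes. Of these, 1 was past 4-fold higher in contractile cells and 0 lower, beside 2.03% and 1.35% of all genes counted. The higher gene was Pln, phospholamban, which restrains the calcium pump of the sarcoplasmic reticulum. It had 72 UMIs in contractile cells and 0 in non-contractile cells, at least 19.1-fold higher. Atp2a2, the pump that Pln binds, had 556 CPM in contractile and 338 CPM in non-contractile cells, with a log2 ratio of 0.72 (0.21 to 1.25). The other KATP subunits, Kcnj11 and Abcc8, and all other inward rectifiers were under 20 UMIs over the 2 classes.

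Against NG2-DsRed endothelial barcodes, 27 list genes that are not members were counted. Of these, 8 were past 4-fold higher in mural cells and 1 was lower, beside 5.3% and 6.44% of all genes counted. Those higher included Cacna2d1, the auxiliary subunit that brings L-type channels to the membrane, with 256 CPM in mural and 21.3 CPM in endothelial barcodes and a log2 ratio of 3.59 (2.68 to 4.65). Pln had a log2 ratio of 3.28 (2.39 to 4.30) and Trpc1 one of 2.64 (1.41 to 4.08). Trpv2, Kcnmb1, Lrrc8d and Atp2a2 lay between 2.01 and 2.43. The lower gene was Piezo1, a mechanosensitive channel known for sensing flow in ECs, with 1 UMI in mural cells and 33 in endothelial barcodes, a log2 ratio of -4.35 (-9.70 to -1.77). Orai1 and Itpr2, a store-operated calcium channel and another inositol trisphosphate receptor, were also lower in mural cells, by log2 ratios of -1.33 (-2.29 to -0.47) and -1.18 (-2.24 to -0.24). Itpr1 and Itpr2 therefore had opposite signs in the same comparison.

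The gene whose levels across classes were most like those of Kcnj8 was Abcc9, and the reverse also held. Likeness was the root mean square difference of centred log2(CPM + 10) over 6 profiles (2 mural, 2 endothelial and 2 intermediate-like) among 1053 genes with at least 50 mural UMIs. The difference between Kcnj8 and Abcc9 was 0.26 on this log2 scale. Next for Kcnj8 came Steap4, a metalloreductase of mural cells, at 0.26, and Pcdh19 was among the 3 genes nearest to Abcc9, at 0.50. Steap4 was at 677 CPM in non-contractile, 253 in contractile and 69.6 in NG2-DsRed endothelial barcodes, the order seen for the KATP genes. The profiles share 2 libraries and differ in depth, and the ranking is a description.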

How the data were processed

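SV cells of Tie2-GFP and NG2-DsRed mice were sorted, and 1 10x library was made per line. The matrices the authors deposited hold UMI counts, not normalized, with genes in rows and barcodes in columns. Per the file headers Tie2-GFP was counted with Cell Ranger 7.0.0 and NG2-DsRed with software 3.0.0, and per the labels the build was mm10. The Tie2-GFP matrix lists 32285 genes and the NG2-DsRed matrix 27998. Whether intronic reads were counted was not given in the sources used here, which could affect long genes such as Cacna1c and Itpr1 between libraries.

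Barcodes were kept at 200 to 5000 genes and 200 to 20000 UMIs (NG2-DsRed) or 200 to 6000 genes and 200 to 30000 UMIs (Tie2-GFP), with at most 5% mitochondrial and 40% ribosomal UMIs. Intermediate-like barcodes often exceeded the mitochondrial limit and were taken before all of these limits, with up to 42476 UMIs in Tie2-GFP. Total UMIs were 965374 and 3564864. UMIs were summed per class. CPM has exact Poisson, shares have Clopper-Pearson and ratios conditional binomial 95% intervals, with 0.5 counts added where a sum is 0, and a limit of 3 counts for a count of 0. Thinning used the hypergeometric expectation at the 10th percentile of mural depth. No doublet caller was used for the main values, whereas the study removed doublets with scDblFinder. Scrublet was tried as an alternative. Ratios were tested on simulated Poisson counts for the contractile comparison, where 97.1% of the intervals over 3107 genes covered the true ratio. The simulated counts held no spread between cells, so this cannot show whether the intervals hold for the real cells. Named genes are the members, the class markers, list genes past 4-fold or among the highest in mural cells, and the 3 genes most like Kcnj8 and Abcc9; Orai1, Itpr2, Kcnj11 and Abcc8 were named after their values were seen. Some genes that the rule names are not reported here. Members and lists were chosen with earlier results of these data known, and Kcne5, in 1 list, was not matched. Python 3.11.15, scipy 1.17.1 and scanpy 1.11.5 were used. Gene positions are from GENCODE M21 and promoters from RefSeq.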

Additional observations from a re-analysis of the deposited data

How the results depend on the processing

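No ratio whose main interval was clear of 0 changed sign. Itpr1, whose main interval held 0, went from 0.19 to -1.10 in the contractile ratio with the limit at 10 UMIs. Of 91 alternative values of the contractile ratio 7 left the main interval, all from 2 settings: with the limit at 10 UMIs Kcnj8 was -2.41 and Abcc9 -2.77, and without the 3 to 9 class, chosen after seeing the data, they were -2.52 and -2.91. Of 77 values of the mural to endothelial ratio 17 did. Kcnj8 and Abcc9 were 3.26 and 3.11 with equal weight of cells, 6.12 and 4.85 against endothelial barcodes with at most 1 mural marker, 4.19 and 3.63 against those of Tie2-GFP, and 9.73 and 8.05 against those of Tie2-GFP with at most 1 mural marker, the last chosen after seeing the data. Kcnj2 went from 0.37 to -3.40 against Tie2-GFP endothelial barcodes. Co-detection was 38.9% and 15.0% with at least 2 UMIs of each gene, and 17.5% in contractile cells after thinning. Past 2-fold in place of 4-fold, 2 members were lower in contractile cells. Scrublet at the planned rate removed 0 NG2-DsRed barcodes and so tried nothing there. Leaving out the 8 it marked at its own threshold, chosen after seeing the data, gave -1.84 for Kcnj8 and -2.03 for Abcc9. No paired analysis was possible because each line is 1 library. Classes of 16 to 54 barcodes and transcripts of a few UMIs per cell limit what can be told apart. The cause of these shifts was not tested.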
